A study of Mus musculus with 9 samples.

Results

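The genes described here are 9 that encode structural parts of epithelial tight and adherens junctions: Tjp1, Tjp3, Cgn, Ocln, Marveld2, Marveld3, Ildr1, F11r and Cdh1. They were taken by symbol, from a list drawn up with earlier results of these data known. All 9 were found among the 25579 symbols of the deposited table that holds treated and untreated homozygous cochleae, and 2 of them, Ocln and Cdh1, among the 1410 symbols of the table that holds homozygous and wild-type cochleae. RNA came from the membranous labyrinth, the soft tissue inside the bony cochlea, of mice at postnatal day 28, and was sequenced as stranded total RNA. Treated mice were homozygous for a humanized MPZL2 gene with the nonsense allele Q74X (hMPZL2Q74X/Q74X) and had received AAV-ie-ABE8eWQ-SpRY:sgRNA3, an adeno-associated virus that delivers an adenine base editor with its guide, injected at postnatal day 2 via the round window membrane. Untreated homozygous mice, called HOMO, were of the same genotype without injection, and the third group was Mpzl2 wild type (WT). Each group had 3 libraries, labelled as biological replicates. Nothing in the labels says how many animals a library held, so p-values measure the spread between libraries.

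Tight junctions seal the space between neighbouring epithelial cells, and in the cochlea they keep potassium-rich endolymph apart from perilymph and hold the fluid of the stria vascularis in its own compartment. Their strands are built of claudins and of the MARVEL proteins occludin (Ocln), tricellulin (Marveld2) and Marveld3, while zonula occludens proteins such as ZO-1 (Tjp1) and ZO-3 (Tjp3) tie the strands to actin from the cytoplasmic side, together with cingulin (Cgn). Where 3 cells meet, tricellulin is placed by angulins such as Ildr1. F11r, also called JAM-A, is an adhesion protein of the immunoglobulin superfamily at tight junctions, and Cdh1, or E-cadherin, is the adhesion receptor of the adherens junctions below them. In people, variants of MARVELD2 and ILDR1 are known from inherited deafness.

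The file headers give no unit, and the values were read as TPM because the processing notes name kallisto and the columns of the table with nearly all genes sum to just under the total that TPM has. TPM is a relative transcript abundance that is scaled for transcript length and for the library total and can therefore be compared between genes. Those columns, of the treated and HOMO table, summed to between 995747 and 996703, and how deeply the libraries were sequenced is unknown. Mpzl2 itself was at 5.64, 5.62 and 16.3 TPM in treated libraries, against 17.4, 24.0 and 13.1 TPM in HOMO libraries of the same table (limma adjusted p = 0.335), and in the other table at 16.7, 23.2 and 12.5 TPM in HOMO libraries, against 33.6, 43.9 and 49.0 TPM in WT libraries (limma adjusted p = 0.0139). Whether transcripts of the humanized allele were counted to the mouse symbol is not known from the labels. Treated libraries 1 and 2 barely differed. Among genes at 1 to 5 TPM, the median absolute deviation of log2 ratios was 0.0695 between these libraries, where the other 5 pairs within a group gave 0.869 to 1.83. They were counted as 1 sample through their mean, so the treated group had 2 samples in every test, mean and SD.

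The libraries also differed in markers of cell types, and these differences stand beside the results that follow. Epcam, Krt8 and Krt18, which mark simple epithelium and check that epithelial RNA was present, summed to 236, 203 and 485 TPM in treated libraries, against 90.9, 160.1 and 105 TPM in HOMO libraries, and none of the 3 was at 0 in any library. Macrophage markers (5 of 5 in the table) summed to between 314 and 341 TPM in treated libraries and between 61.8 and 90.1 TPM in HOMO libraries. Forebrain neuron markers (6 of 6 in the table) summed to 1258, 1237 and 178 TPM in treated libraries, against 156 to 193 TPM in HOMO libraries. Most of the sum in HOMO libraries (149, 140 and 183 TPM) and in treated library 3 (157 TPM) came from Slc17a7 alone. In treated library 3, Tbr1, Neurod2 and Neurod6 of that list were at 0, and Camk2a was at 8.13 TPM, against 745 and 722 TPM in treated libraries 1 and 2 and 0.471 to 0.554 TPM in HOMO libraries, so a Camk2a signal above HOMO was present in treated library 3 too. Bone markers (4 of 4) summed to between 82.5 and 94.0 TPM in treated libraries, against 226, 895 and 238 TPM in HOMO libraries, so HOMO library 2 stood apart. Hair cell markers (7 of 8) summed to between 356 and 532 TPM in treated libraries and between 150.4 and 281 TPM in HOMO libraries, and those of choroid plexus (5 of 5) to 156, 154 and 100.4 TPM in treated libraries, against 42.8, 43.6 and 61.4 TPM in HOMO libraries. In the choroid plexus list Ttr and Otx2 were higher in every treated library, and Folr1 and Clic6 overlapped. Kl of that list was lower in every treated library (log2 fold change -0.63). Sums of supporting cell and of root and spindle cell markers overlapped. Among them Lfng, Otog and P2rx2 were higher in treated libraries (limma adjusted p = 0.0199, 0.0224 and 0.0453), while Sox2, Gjb2 and Tecta had negative log2 fold changes. Fibrocyte markers (4 of 4) summed to 5036, 4933 and 4941 TPM in treated libraries, against 8560, 9195 and 7111 TPM in HOMO libraries. Those of Schwann cells (4 of 4) summed to 3346, 3276 and 2795 TPM in treated libraries, against 5907, 3565 and 6944 TPM in HOMO libraries, so both were lower in every treated library. Mitochondrial transcripts made up 2.17%, 2.22% and 6.16% of the TPM in treated libraries, against 13.6%, 10.7% and 13.4% in HOMO libraries. HOMO library 2 was also the highest HOMO library in the summed markers of stria marginal cells, at 1338 TPM against 598 and 483 TPM in HOMO libraries 1 and 3, while the treated libraries had 895, 874 and 1829 TPM. In bulk RNA, fewer cells of a type and less RNA per cell cannot be told apart.

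**Figure D1:**
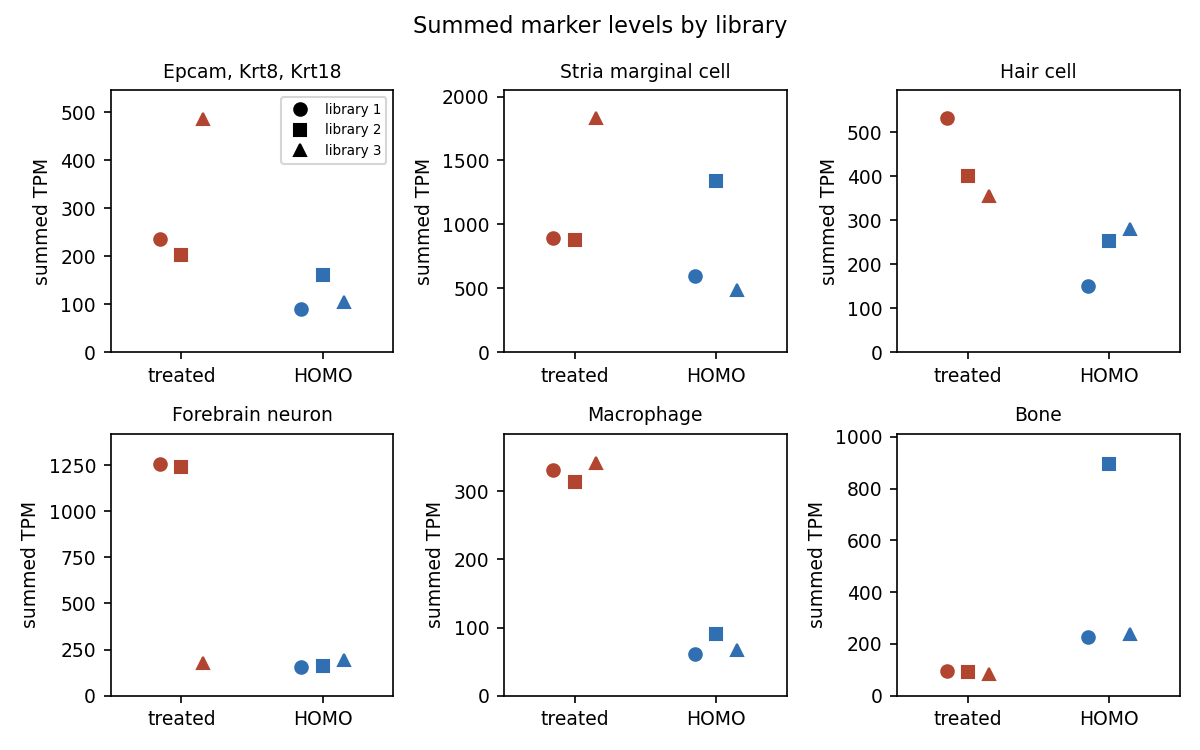
Summed TPM (y axes, linear, from 0) of 6 marker lists in the 3 treated and 3 HOMO libraries, with a symbol for each library number. Treated libraries 1 and 2 stand alone in forebrain neuron markers at 1258 and 1237 TPM, treated library 3 has the highest epithelial sum at 485 TPM, and all treated libraries lie above all HOMO libraries in macrophage markers.

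The main comparison asked how the junction genes differed between treated and untreated homozygous cochlea. Tjp3 rose 4.31-fold in treated cochlea, and it was the 1 of 9 genes to pass the test. Ildr1, Marveld3, Cgn and F11r had higher values in every treated library than in every HOMO library, by 2.03-fold to 3.15-fold, without passing. Ocln and Marveld2 were also higher without overlap, Cdh1 overlapped, and Tjp1 was the 1 gene with a negative change. Over all 17102 tested genes, 4.41% passed the test in either direction, 3.44% as higher and 0.965% as lower. An unadjusted p under 0.05 was reached by 5 of the 9 genes, against 26.7% of all tested genes, and 7 of the 9 were higher without overlap between libraries, against 28% of all tested genes (14.8% were lower without overlap). Their median log2 fold change was 1.02, beside 0.20 for all tested genes. Under median-of-ratios scaling these medians were 0.83 and 0.02, and no junction gene changed its direction. The test was limma on log2(TPM + 1), two-sided, with Benjamini-Hochberg adjustment over all tested genes, and folds on that scale come out too small for genes of low abundance.

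**Figure D2:**
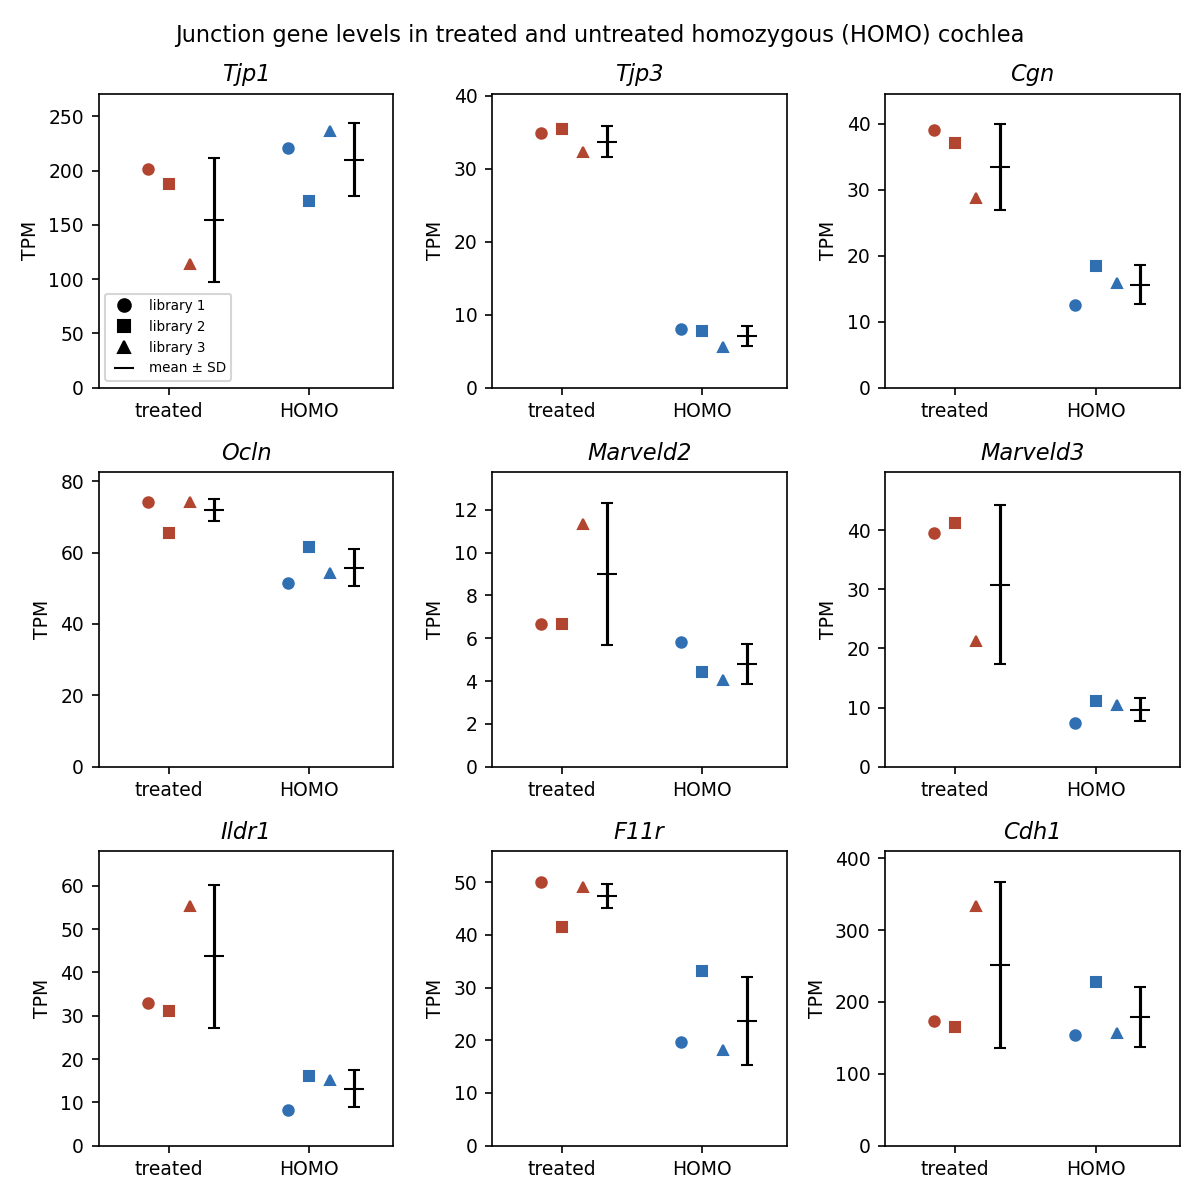
TPM (y axes, linear, from 0) of the 9 junction genes in treated and HOMO libraries, with a symbol for each library number and black bars for mean ± SD (n = 2 treated samples, libraries 1 and 2 averaged, and n = 3 HOMO). Tjp3, Marveld3, Cgn, Ildr1 and F11r separate the groups clearly, whereas Tjp1 and Cdh1 overlap and depend on treated library 3.

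Among the cytoplasmic scaffold proteins, Tjp3 passed the test and its paralog Tjp1 had a negative log2 fold change that did not. Tjp3, which encodes ZO-3, a zonula occludens protein of epithelial cells, had 34.9, 35.5 and 32.2 TPM in treated libraries, against 8.03, 7.75 and 5.57 TPM in HOMO libraries. Treated library 3 lay close to treated libraries 1 and 2, which were counted as 1 sample, and all were far above the highest HOMO value. The means were 33.7 ± 2.08 TPM in treated cochlea (SD, n = 2) and 7.12 ± 1.35 TPM in HOMO cochlea (SD, n = 3), with a log2 fold change of 2.11 (SE 0.30, 95% interval 1.39 to 2.83, limma adjusted p = 0.0223). Leaving out HOMO library 1, 2 or 3 gave log2 fold changes of 2.19, 2.17 and 1.96 with limma adjusted p = 0.126, 0.0609 and 0.114, so the call rested on all 3 HOMO libraries. Treated library 3, where Tbr1, Neurod2 and Neurod6 were at 0 and Camk2a was at 8.13 TPM, had 4.53 times the mean HOMO level of Tjp3. Set alone against HOMO, its limma adjusted p was 0.0643 at a log2 fold change of 2.05. Such a fit of treated library 3 alone, and equally one without it, has 1 treated sample, so the HOMO libraries alone give the spread and the lone sample is assumed to vary like them. With mitochondrial genes removed the log2 fold change of Tjp3 was 2.00 (limma adjusted p = 0.0262). Summed macrophage, choroid plexus and epithelial markers were higher in the same libraries, though not every choroid plexus gene was. Their part in the difference was not tested.

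Tjp1 encodes ZO-1, the zonula occludens protein found in nearly all epithelia and endothelia. Its level was 202, 188 and 114 TPM in treated libraries, against 221, 172 and 237 TPM in HOMO libraries. Treated library 3 was the lowest of the 6, while treated libraries 1 and 2 fell inside the HOMO range. The log2 fold change was -0.48 (95% interval -1.13 to 0.18, limma adjusted p = 0.309), and without treated library 3 it was -0.10. The ratio of Tjp3 to Tjp1 within a library was 0.173, 0.189 and 0.283 in treated libraries, against 0.0363, 0.045 and 0.0235 in HOMO libraries, so Tjp1 remained the more abundant of the pair in every library.

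The sequences upstream of these paralogs are shown because they are the scaffold genes with the highest and the lowest fold change of the 9. RefSeq lists 2 start sites for Tjp3 and 1 for Tjp1, each given from 250 bases before to 50 bases after the start, on build GRCm38.p6, 5′ to 3′ on the gene's own strand (minus for all 3 windows). The windows are chr10:81291532-81291831 and chr10:81291218-81291517 for Tjp3 and chr7:65371195-65371494 for Tjp1. Capitals mark CAGGTG, an E box, on either strand.
Tjp3 start 1: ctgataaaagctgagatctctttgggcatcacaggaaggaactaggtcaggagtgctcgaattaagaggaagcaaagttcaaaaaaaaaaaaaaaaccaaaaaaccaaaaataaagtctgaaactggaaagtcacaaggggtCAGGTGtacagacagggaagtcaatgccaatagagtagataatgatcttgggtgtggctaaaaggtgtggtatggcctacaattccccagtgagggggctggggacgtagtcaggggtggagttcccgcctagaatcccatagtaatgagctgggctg
Tjp3 start 2: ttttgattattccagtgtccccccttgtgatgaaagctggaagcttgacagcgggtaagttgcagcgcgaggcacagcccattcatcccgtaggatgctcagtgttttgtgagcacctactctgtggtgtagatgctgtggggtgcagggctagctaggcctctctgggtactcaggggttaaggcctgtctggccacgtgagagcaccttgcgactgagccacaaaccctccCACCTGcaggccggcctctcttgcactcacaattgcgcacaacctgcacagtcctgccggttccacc
Tjp1 start: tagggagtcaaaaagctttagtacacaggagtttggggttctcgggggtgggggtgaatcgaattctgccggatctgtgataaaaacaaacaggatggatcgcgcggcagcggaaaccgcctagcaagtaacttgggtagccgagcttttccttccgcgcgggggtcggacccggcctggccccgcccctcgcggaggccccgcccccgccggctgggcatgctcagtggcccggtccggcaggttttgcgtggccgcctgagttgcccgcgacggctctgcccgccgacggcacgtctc
Each Tjp3 window held 1 match to CAGGTG and the Tjp1 window held 0. The Tjp1 window was 65.3% G and C, against 45.3% and 57.3% for the Tjp3 windows and a median of 52.7% over all windows. RefSeq windows were at hand for 7 of the 9 genes, 10 windows in all. CAGGTG was found in 8 of the 10, where 20.2% of 32851 windows of the same length hold it, and the 2 windows of Ocln overlap and share a match, as do those of Marveld2. AACNNGTT, a form of the Grainyhead-like motif, was found in 1 of the 10, that of Cgn, against 4.2% of all windows. These are matches of letters only.

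Cgn encodes cingulin, which binds ZO proteins and links them to the actomyosin belt. It was at 39.0, 37.0 and 28.8 TPM in treated libraries, against 12.5, 18.5 and 15.8 TPM in HOMO libraries. The groups did not overlap, and treated library 3 was the lowest of the treated. The log2 fold change was 1.05 (SE 0.28, 95% interval 0.37 to 1.73), and the limma adjusted p = 0.0801 missed the threshold.

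Of the MARVEL proteins of the strands, Marveld3 had the highest log2 fold change. Marveld3 had 39.4, 41.1 and 21.3 TPM in treated libraries, against 7.40, 11.1 and 10.4 TPM in HOMO libraries. Every treated library was above every HOMO library, but treated library 3 was at 0.529 times the mean of treated libraries 1 and 2. The log2 fold change of Marveld3 was 1.53 (SE 0.37, 95% interval 0.65 to 2.42, limma adjusted p = 0.0652). Without treated library 3 the log2 fold change was 1.98 (limma adjusted p = 0.0272), and library 3 alone against HOMO gave 1.09 (limma adjusted p = 0.131), each with the spread of the HOMO libraries only. The libraries with the higher Marveld3 values were those with the forebrain neuron transcripts, whose part in the result was not tested.

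Ocln, the gene of occludin, was at 74.3, 65.5 and 74.2 TPM in treated libraries, against 51.6, 61.6 and 54.2 TPM in HOMO libraries. The groups stood next to each other without overlap, 1.29-fold apart, with a log2 fold change of 0.37 (95% interval -0.07 to 0.80, limma adjusted p = 0.249) that was 0.17 under median-of-ratios scaling. Marveld2, the gene of tricellulin, was the least abundant of the 9 in both groups. Its values were 6.67, 6.67 and 11.3 TPM in treated libraries, against 5.84, 4.45 and 4.07 TPM in HOMO libraries. Treated library 3 stood apart above the rest, and the log2 fold change of 0.76 did not pass (95% interval -0.18 to 1.70, limma adjusted p = 0.263) and was 0.42 without treated library 3. Within a library, Marveld3 was at 0.531, 0.628 and 0.287 of the Ocln level in treated cochlea, against 0.143, 0.180 and 0.192 in HOMO cochlea. For Marveld2 to Ocln the ratio was 0.0898, 0.102 and 0.153 in treated libraries, against 0.113, 0.0722 and 0.0750 in HOMO libraries, and these overlapped.

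At tricellular contacts, Ildr1 had a higher log2 fold change than the tricellulin it positions, and the difference between the genes was not tested. Ildr1, the angulin whose loss causes deafness in mice, had 32.9, 31.1 and 55.4 TPM in treated libraries, against 8.33, 16.0 and 15.2 TPM in HOMO libraries. All treated values lay above all HOMO values, with treated library 3 at 1.73 times the mean of the other pair and HOMO library 1 the lowest. Its log2 fold change was 1.66 (SE 0.39, 95% interval 0.73 to 2.58), and the limma adjusted p = 0.0612 missed the threshold. The ratio of Ildr1 to Marveld2 was 4.93, 4.66 and 4.89 in treated libraries, against 1.43, 3.61 and 3.73 in HOMO libraries.

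F11r, the gene of JAM-A, which is also carried by endothelial cells, platelets and leukocytes, was at 50.0, 41.5 and 49.0 TPM in treated libraries, against 19.7, 33.2 and 18.1 TPM in HOMO libraries. HOMO library 2 came closest to the treated values, and the groups did not overlap. The log2 fold change was 1.02 (SE 0.31, 95% interval 0.29 to 1.75, limma adjusted p = 0.1). Endothelial markers (4 of 4 in the table) summed to between 150 and 160 TPM in treated libraries and between 123 and 153 TPM in HOMO libraries. Markers of T cells (3 of 3) summed to 57.4, 48.7 and 76.3 TPM in treated libraries, against 4.03, 0.48 and 0.24 TPM in HOMO libraries, and their part in the F11r difference was not tested.

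Cdh1, the adhesion receptor of epithelial adherens junctions, followed a different order of libraries. It was at 173, 166 and 333 TPM in treated libraries, against 154, 227 and 157 TPM in HOMO libraries. Treated library 3 was the highest of the 6, and treated libraries 1 and 2 lay within the HOMO range. The log2 fold change was 0.43 (95% interval -0.36 to 1.21, limma adjusted p = 0.443). Its direction depended on treated library 3, since without it the log2 fold change was -0.06, and with library 3 alone it was 0.91 (limma adjusted p = 0.122, with the spread of the HOMO libraries only). F11r stood at 0.288, 0.250 and 0.147 of the Cdh1 level in treated libraries, against 0.127, 0.146 and 0.116 in HOMO libraries.

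**Figure D3:**
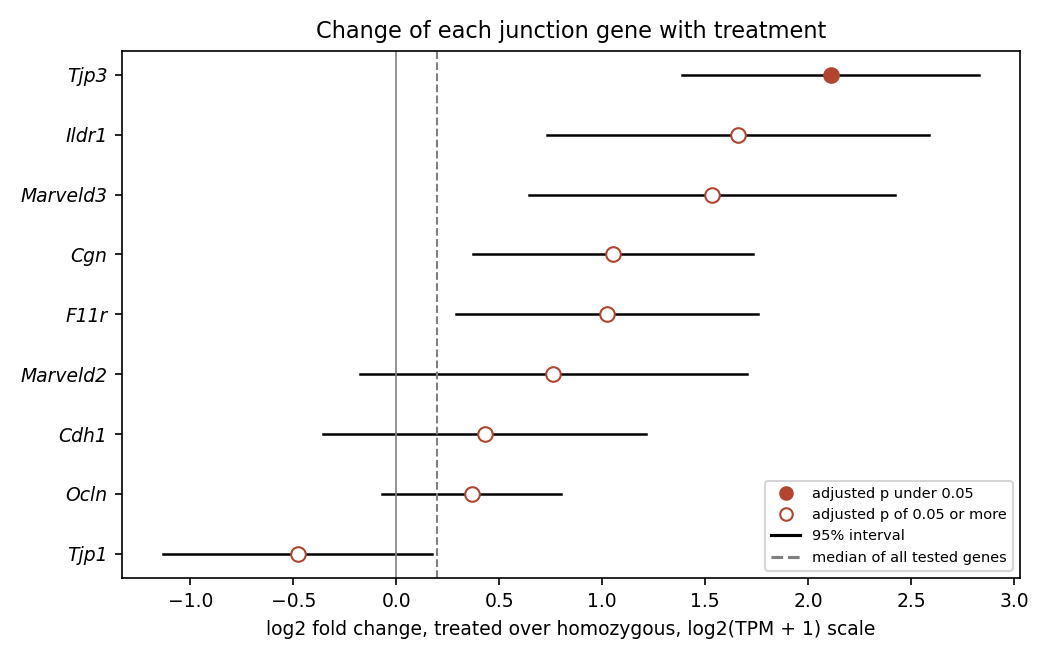
Log2 fold change, treated over HOMO, of the 9 junction genes on the log2(TPM + 1) scale (x axis) with 95% intervals from limma (n = 2 treated samples and 3 HOMO). Tjp3 at 2.11 is the filled point that passed the test, 5 intervals lie wholly above 0, and the dashed line is the median of all tested genes at 0.20.

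Because epithelial markers were also higher in treated libraries, each junction gene was set against Epcam, an epithelial surface protein, within each library. Epcam was picked for this after its values had been seen, and the ratios carry no test. Epcam was at 179, 147 and 353 TPM in treated libraries, against 60.9, 109 and 78.3 TPM in HOMO libraries (log2 fold change 1.56, limma adjusted p = 0.0663). For 3 of the 9 genes the ratio was lower in every treated library than in every HOMO library, and for the other 6 the groups overlapped. The share of all tested genes with such a lower ratio was not computed. Epcam rose by more than the median gene (median log2 fold change 0.20), so a gene that hardly changed also tends to a lower ratio. The lower ratios are therefore not particular to junction genes. Cdh1 was at 0.968, 1.12 and 0.945 times the Epcam level in treated libraries, against 2.53, 2.08 and 2.00 times in HOMO libraries. Ocln was at 0.415, 0.445 and 0.210 times in treated libraries, against 0.848, 0.563 and 0.692 times in HOMO libraries. Tjp1 was at 1.13, 1.27 and 0.323 times in treated libraries, against 3.63, 1.57 and 3.02 times in HOMO libraries. Tjp3 per Epcam was 0.195, 0.241 and 0.0914 in treated libraries, against 0.132, 0.0709 and 0.0711 in HOMO libraries, so treated library 3 fell below HOMO library 1 on that measure.

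By abundance, Cdh1 and Tjp1 led in both groups. In treated cochlea the order of mean levels was Cdh1 (251 ± 116 TPM), Tjp1 (154 ± 57.0), Ocln (72.1 ± 3.07), F11r (47.4 ± 2.34), Ildr1 (43.7 ± 16.6), Tjp3 (33.7 ± 2.08), Cgn (33.4 ± 6.52), Marveld3 (30.8 ± 13.4) and Marveld2 (9.01 ± 3.30; SD, n = 2). In HOMO cochlea it was Tjp1 (210 ± 33.7 TPM), Cdh1 (179 ± 41.4), Ocln (55.8 ± 5.18), F11r (23.7 ± 8.30), Cgn (15.6 ± 3.00), Ildr1 (13.2 ± 4.22), Marveld3 (9.61 ± 1.95), Tjp3 (7.12 ± 1.35) and Marveld2 (4.78 ± 0.93; SD, n = 3). The libraries of Cdh1 and Tjp1 overlapped in both groups, and from F11r down each gene overlapped with its neighbours in the order, except that Marveld2 lay below all other genes in treated libraries. Tjp1 and Cdh1 together made up 57.5%, 57.8% and 62.2% of the summed TPM of the 9 genes in treated libraries, against 76.8%, 72.4% and 76.1% in HOMO libraries.

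Profiles were also compared over the 5 samples of this table (treated libraries 1 and 2 as 1 sample) as the root mean square difference of centred log2(TPM + 1), where 0 is an identical pattern. Among tested genes the nearest to Tjp3 were Sp100 (0.0966) and Ptprc (0.0994), to Ildr1 Serinc2 (0.0625) and Gpx3 (0.0911), to Marveld3 Ccdc85c (0.0613) and Dusp6 (0.0739), and to Cgn Tnfrsf11a (0.0254) and Fam149a (0.0455). The nearest to Cdh1 were Rps10 (0.0371) and Imp3 (0.0412), to Tjp1 Abca13 (0.0312) and Ppp2r3c (0.0487), to Ocln Foxo3 (0.0297) and Lrrc59 (0.0302), to F11r Crim1 (0.0437) and Gngt2 (0.05), and to Marveld2 Evc (0.0818) and Polr3k (0.0832). None of these was itself one of the 9. Within the 9, the closest pair was Cgn and F11r at 0.255. The genes share the same 5 samples, and the likeness is a description.

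Other junction and epithelial genes were taken from 6 lists, and among their 71 tested members 1 passed, which was Krt19. Of all tested genes 4.41% passed in the same fit, so with all libraries the lists held no surplus of adjusted calls. Fits without treated library 3, or with it alone, have 1 treated sample, so their counts are not set beside these. The count among the 71 was 0 without HOMO library 1, where 0.368% of all tested genes passed. It was 2 without HOMO library 2 and 1 without HOMO library 3, where 1.07% and 0.409% of all tested genes passed. Without treated library 1 it was 2 and without treated library 2 it was 1, where 4.26% and 4.36% passed. Over all tested genes, 61% lay above 0 in the fit with all libraries, and 26.7% reached an unadjusted p under 0.05 (18.8% as higher). Of 18 tested genes of epithelial identity and splicing (19 listed, Ovol1 being too low to test), all had positive log2 fold changes, 16 under median-of-ratios scaling, with a median of 1.35. By limma 12 of them reached an unadjusted p under 0.05, all as higher. Without overlap 14 were higher, against 28% of all tested genes, while Krt7, Esrp2, Grhl2 and Rab25 overlapped. Esrp2, Grhl2 and Rab25 were below every HOMO library in treated libraries 1 and 2, so their positive sign came from treated library 3. Krt19, a keratin of simple epithelia, rose to 81.7, 93.9 and 86.0 TPM in treated libraries, against 14.5, 13.6 and 17.8 TPM in HOMO libraries, with 2.44 as the log2 fold change (limma adjusted p = 0.00608, and 0.0511 without HOMO library 1). Of 19 genes of the tight junction plaque and of cell polarity, 16 lay above 0 (15 under that scaling), 0 passed by limma and 6 reached an unadjusted p under 0.05, with a median log2 fold change of 0.45 (0.26 under that scaling). The most abundant were Afdn, the actin-binding scaffold afadin, with a log2 fold change of 0.41, and Arhgef2, which encodes a protein found at tight junctions, with one of 0.88 (limma adjusted p = 0.232 and 0.123). Of 7 other immunoglobulin-like and tricellular junction genes, 4 lay above 0, 0 passed by limma and 3 reached an unadjusted p under 0.05, and the median was 0.45 (0.26 under that scaling). The share above 0 was thus close to that of all tested genes. Cxadr, an adhesion protein that also serves as a virus receptor, was at 270, 253 and 236 TPM in treated libraries, against 114, 127 and 165 TPM in HOMO libraries (limma adjusted p = 0.0619), whereas Jam3 was at 285, 290 and 321 TPM in treated libraries, against 339, 411 and 360 TPM in HOMO libraries (limma adjusted p = 0.359).

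Genes of the cadherin and nectin complex did not pass singly. Of 13 tested, 10 lay above 0 (9 under that scaling) and 0 passed by limma, with a median of 0.73. An unadjusted p under 0.05 was reached by 8, against 26.7% of all tested genes. Of these 8 genes 6 were higher, while Cdh2 and Ctnnd1 were lower (log2 fold changes -0.85 and -0.44). Ctnnb1, which encodes beta-catenin, the cytoplasmic partner of E-cadherin, was at 620, 586 and 725 TPM in treated libraries, against 375, 488 and 349 TPM in HOMO libraries (limma adjusted p = 0.102), and Ctnna1, the gene of alpha-catenin, had 0.40 as the log2 fold change (limma adjusted p = 0.205). Of 9 desmosome genes, 6 lay above 0, 0 passed by limma and 4 reached an unadjusted p under 0.05, with a median of 0.39 (0.22 under that scaling) and a share above 0 near that of all tested genes. The most abundant, Perp and Dsp, had log2 fold changes of -0.07 and 0.23. Of 5 genes of transcriptional repressors of Cdh1, 1 lay above 0, 0 passed by limma and 0 reached an unadjusted p under 0.05. Among these Zeb1 was at 125, 125 and 59.4 TPM in treated libraries, against 90.1, 86.8 and 90.0 TPM in HOMO libraries, and Zeb2 at 326, 367 and 178 TPM in treated libraries, against 195, 186 and 205 TPM in HOMO libraries, so for both genes treated library 3 was the lowest of the 6.

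**Figure D4:**
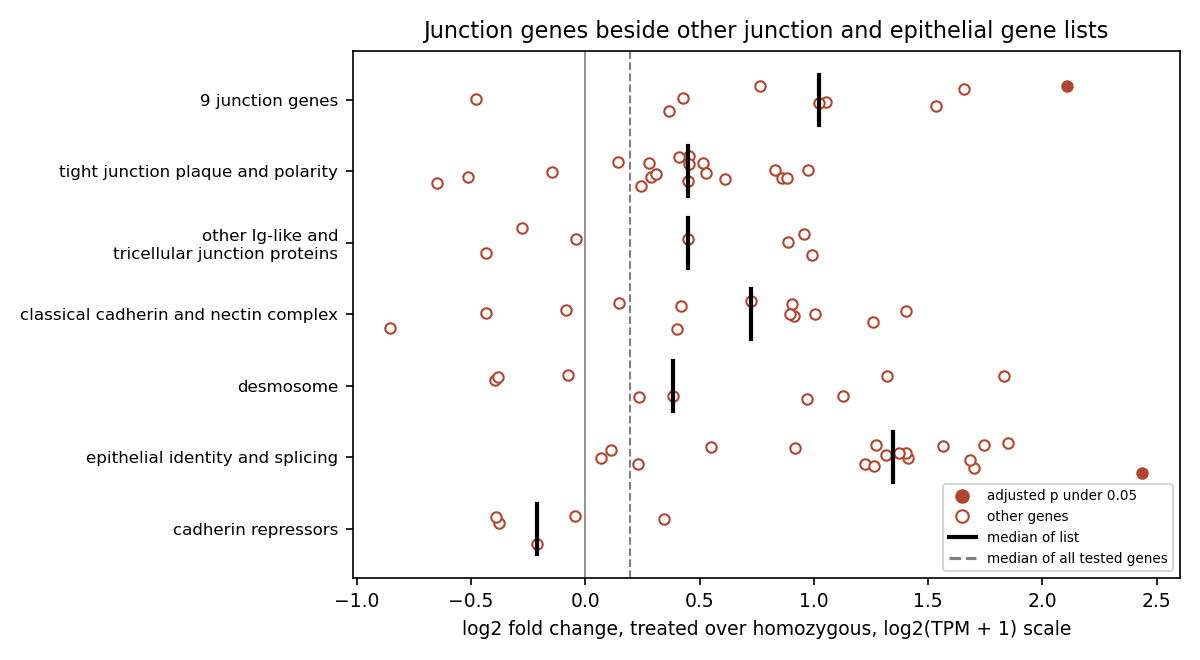
Log2 fold change, treated over HOMO, on the log2(TPM + 1) scale (x axis) of each tested gene in the 9 junction genes and 6 further lists, with a black bar at each list's median. Tjp3 and Krt19 are the filled points that passed the test, the list of epithelial identity and splicing has the highest median at 1.35, and the Cdh1 repressors have the lowest at -0.21.

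The comparison of homozygous with WT cochlea could be made for Ocln and Cdh1 only, and neither passed. Both were somewhat higher in HOMO libraries. The table that holds them appears to be a selection made on these very samples, because its smallest absolute log2 fold change among 1348 tested genes was 0.243, so neither value is independent evidence. Of its tested genes 51.3% passed the test in either direction, 17.9% as higher and 33.5% as lower, 75.7% had an unadjusted p under 0.05, and 31.5% were higher without overlap between libraries. Of the 2 junction genes, 0 passed by limma, and 1, Ocln, reached an unadjusted p under 0.05.

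Ocln was at 36.6, 45.6 and 37.1 TPM in HOMO libraries, against 31.4, 31.1 and 28.9 TPM in WT libraries. The groups did not overlap, and HOMO library 2 was the highest. The means were 39.8 ± 5.07 TPM in HOMO cochlea and 30.4 ± 1.34 TPM in WT cochlea (SD, n = 3 each), with a log2 fold change of 0.37 (SE 0.15, 95% interval 0.04 to 0.70, limma adjusted p = 0.0562). When libraries were rescaled by the median of ratios over the genes of this table, the log2 fold change was 0.51 and passed (limma adjusted p = 0.0274). That rescaling takes most genes as unchanged, but the smallest absolute log2 fold change in this table was 0.243. It therefore cannot settle whether Ocln differed. Without HOMO library 2, and without rescaling, the log2 fold change was 0.27 (limma adjusted p = 0.0984).

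Cdh1 was at 113.0, 165 and 112.10 TPM in HOMO libraries, against 94.2, 102.5 and 112.04 TPM in WT libraries. HOMO library 2 stood apart, and the lowest HOMO value and the highest WT value were nearly the same. The log2 fold change was 0.32 (SE 0.17, 95% interval -0.08 to 0.71, limma adjusted p = 0.109), and without HOMO library 2 it was 0.13 (limma adjusted p = 0.284). The same library was highest in markers of stria marginal cells. The 2 of 5 such markers in this table, Lrp2 and Atp13a5, summed to 290, 590 and 261 TPM in HOMO libraries, against 198, 195 and 164 TPM in WT libraries, and their part in the Cdh1 and Ocln values was not tested. Other cell types differed as well. Schwann cell markers (4 of 4, each of which fell by the same limma test) summed to 4314, 2626 and 5005 TPM in HOMO libraries, against 7298, 7562 and 7051 TPM in WT libraries. Bone markers (2 of 4 in this table) summed to 110, 256 and 101 TPM in HOMO libraries, against 368, 347 and 508 TPM in WT libraries. Those of choroid plexus (2 of 5) summed to 19.5, 21.3 and 22.1 TPM in HOMO libraries, against 8.46, 12.1 and 9.97 TPM in WT libraries. Their part in any difference between HOMO and WT was not tested.

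**Figure D5:**
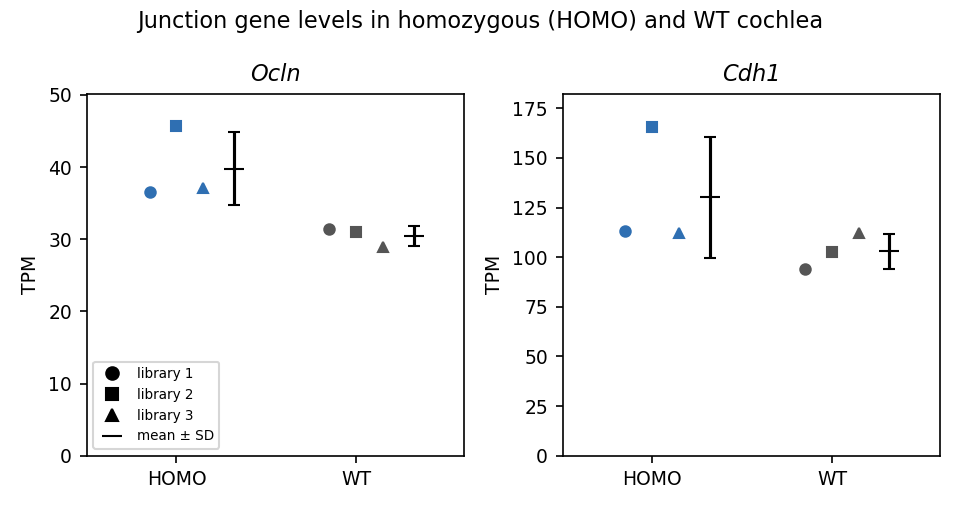
TPM (y axes, linear, from 0) of Ocln and Cdh1 in 3 HOMO and 3 WT libraries of the table that holds both groups, with a symbol for each library number and black bars for mean ± SD (n = 3 each). HOMO library 2 is the highest for both genes, at 45.6 TPM for Ocln and 165 TPM for Cdh1, and the other HOMO libraries of Cdh1 lie close to the highest WT library.

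The HOMO libraries had other values in the table shared with the treated libraries, so levels cannot be carried from 1 table to the other. There Ocln stood at 1.41, 1.35 and 1.46 times its value in the WT table and Cdh1 at 1.37, 1.37 and 1.40 times, while the median over genes shared by both tables was 1.16 to 1.17 times. Both comparisons use the same HOMO libraries. Side by side, the log2 fold changes of Ocln were 0.37 for treated over HOMO and 0.37 for HOMO over WT, and those of Cdh1 were 0.43 and 0.32. Under median-of-ratios scaling they were 0.17 and 0.51 for Ocln and 0.23 and 0.46 for Cdh1.

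In the WT table, 5 other genes of the junction lists passed, 3 higher and 2 lower in HOMO cochlea, of 7 tested. Of all its tested genes 51.3% passed. Its rows appear to be selected on these very samples, so these calls are not independent evidence either. With any 1 library left out, between 0 and 3 of the 7 passed: 0 without HOMO library 1 or any WT library, 2 without HOMO library 2 and 3 without HOMO library 3. The share of all tested genes that passed was 13.6% without HOMO library 1 and 7.64% to 10.8% without a WT library. It was 38.3% without HOMO library 2 and 45.3% without HOMO library 3. Under median-of-ratios scaling the 3 higher calls held and both lower calls were lost, with limma adjusted p = 0.0573 for Magi2 and 0.099 for Clmp. As for Ocln, that scaling cannot settle these calls. Magi2, a scaffold with guanylate kinase-like and PDZ domains, fell to 59.6, 42.7 and 67.5 TPM in HOMO libraries, against 81.2, 87.5 and 85.2 TPM in WT libraries (log2 fold change -0.60, limma adjusted p = 0.038). Clmp, an adhesion protein related to Cxadr, fell to 56.8, 68.9 and 52.3 TPM in HOMO libraries, against 94.4, 75.3 and 75.8 TPM in WT libraries (log2 fold change -0.46, limma adjusted p = 0.0453). Perp, a desmosome protein and p53 target, rose to 34.0, 49.5 and 27.7 TPM in HOMO libraries, against 24.2, 22.0 and 20.4 TPM in WT libraries (log2 fold change 0.68, limma adjusted p = 0.0418). Patj, a polarity scaffold that binds ZO-3, and Twist1, a repressor of Cdh1, rose by 0.39 and 0.71 on the log2 scale, both just inside the threshold (limma adjusted p = 0.0499 and 0.04997). The table held 0 genes of the cadherin and nectin list and 0 of the epithelial identity list.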

How the data were processed

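The submitters' processing notes name kallisto 0.51.0, DESeq (without a version) and build GRCm39. The authors deposited values read here as TPM, a unit the headers do not name, in 2 tables, 1 for WT and homozygous and 1 for homozygous and treated libraries. The rule for the rows of the first is unknown here. TPM keeps no depth, so no count test, interval of counts or detection floor is given. Groups were taken from sample titles, because the genotype field counts upward from sample to sample.

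Values of repeated symbols were summed. A gene was tested if 3 or more libraries of a table had 1 TPM or more, which all junction genes present passed. Each table was fitted on its own with limma 3.58.1 (R 4.3.3) on log2(TPM + 1), with a mean per group, a variance trend, two-sided tests, Benjamini-Hochberg adjustment over all tested genes and a threshold of 0.05. The fit was tested on simulated data. Treated libraries were not tested against WT. The members and lists were chosen with earlier results of these data known. From each further list the text names up to 4 genes that passed, or else the 2 most abundant, and for each junction gene the 2 genes nearest in pattern. Alternatives were another pseudocount, no filter, rescaling, removal of mitochondrial genes, a replicate block and leaving out libraries.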

Additional observations from a re-analysis of the deposited data

How the results depend on the processing

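The direction of the change held for 10 of the 11 values of junction genes in the alternatives run, the exception being Cdh1 in treated over HOMO, whose log2 fold change lay between -0.058 (without treated library 3) and 0.61 (without HOMO library 2) with 1 library left out. The number of junction genes that passed in treated over HOMO was 1. It was 0 with no filter, 0 with treated library 3 alone (an alternative chosen after seeing the data), 5 with treated libraries 1 and 2 as separate samples, and 0 to 2 with 1 library left out. Tjp3 lost its call in 5 of 13 alternatives, with limma adjusted p between 0.0609 and 0.126. The alternatives that kept it include leaving out treated library 1 or 2 (log2 fold change 2.12 and 2.10). Since these libraries are near identical and already averaged, little could change there. Others that kept it counted the pair as separate samples. The number of junction genes that passed in HOMO over WT was 0, and 1 (Ocln) under median-of-ratios scaling. Median-of-ratios scaling takes most genes as unchanged, which a table without small changes does not meet. That scaling moved the median log2 fold change of all tested genes from 0.20 to 0.02 in treated over HOMO and from -0.36 to -0.22 in HOMO over WT, and it changed the sign of 0 junction genes and, in treated over HOMO, of 0 list medians. It gave 404 higher and 243 lower genes, against 589 and 165 unscaled, in treated over HOMO, and 472 higher and 212 lower, against 241 and 451, in HOMO over WT. Over all genes, 754 passed in treated over HOMO. The count was 134 with no filter, 222 with treated library 3 alone, 3563 with libraries 1 and 2 separate, and 63 to 2984 with 1 library left out. In HOMO over WT 692 passed, and 103 to 611 with 1 library left out. The cause of these changes was not tested. Libraries of the same number did not deviate together, with correlations between -0.146 and 0.0493. Deviations from a mean of 3 libraries, with treated libraries 1 and 2 near identical, cannot exclude a pairing by number. With the replicate block, 343 genes and 2 of the 5 list genes, Magi2 and Perp, passed in HOMO over WT, and with treated libraries 1 and 2 separate 1485 genes and 3 junction genes, Tjp3, Marveld3 and Ildr1, passed in treated over HOMO. The depth is unknown, and 2 treated samples limit the tests of treated over HOMO.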
